A study of Mus musculus with 16 samples.

Results

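Zeb1, Zeb2, Snai1, Snai2, Twist1, Twist2 and Prrx1 encode transcription factors best known for driving epithelial-mesenchymal transition. They were found by symbol among the 47729 genes of each count table, and all 7 were present. Their transcripts were counted in 16 bulk RNA-seq libraries from livers of adult, unchallenged mice, 2 for each combination of cell type and genotype label. The 4 cell types were endothelial cells (ECs, sorted as Meca32+ cells without vitamin A autofluorescence), hepatic stellate cells (HSCs, sorted by that autofluorescence), Kupffer cells (KCs, the resident macrophages, sorted as F4/80+ cells without it) and hepatocytes (HEPs, separated by centrifugation). Libraries labelled KO came from mice with floxed Zeb2 alleles (exon 7) and the tamoxifen-inducible Cre recombinase Cdh5-CreERT2, which is driven by the VE-cadherin promoter and therefore targets ECs. Libraries labelled WT came from Cre-negative littermates. Both received 2 mg of tamoxifen a day on 5 days, so that the injections are shared by all groups and the Cre is not. The comparisons address where in the liver sinusoid these factors are transcribed, and whether their levels differed when Zeb2 was targeted in ECs.

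Zeb and Snail proteins are zinc finger repressors that bind E-box motifs, above all CAGGTG, in the promoters of epithelial genes such as Cdh1, the gene for E-cadherin. Twist proteins are basic helix-loop-helix (bHLH) factors that act as dimers with E proteins, and Prrx1 is a paired-related homeodomain factor of mesenchyme. Outside cancer and development several of them serve as identity factors of differentiated cells: Zeb2 is known for maintaining resident macrophages, including KCs, and Snail and Zeb factors are studied in endothelium and in fibrogenic HSCs.

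Depth, as the sum over genes, ran from 12872706 to 15690506 reads, and 3 counts, taken as the smallest level that can be told from 0, correspond to 0.191 to 0.233 CPM (counts scaled by that sum). This floor covers counting error only. The labelled cell types were checked by lists of 10 markers each. Endothelial markers in EC libraries labelled KO stood at a median of 94.3% to 97.8% of their WT level. Hepatocyte transcripts were present in all non-parenchymal libraries and moved with the label: their median level was 11.4% to 21.7% of that in WT HEPs in ECs labelled WT and 1.84% to 2.66% in ECs labelled KO. It was 2.99% to 6.54% against 0.467% to 1.02% in HSCs, and 5.03% to 8.09% against 8.75% to 10.9% in KCs. In bulk RNA, fewer cells of a type and less RNA per cell cannot be told apart. Each group held 2 libraries. The study's methods sort the cell types together from the suspension of a liver, so that libraries of different cell types can come from 1 mouse, but no label says which do or whether replicates are separate mice. The p-values therefore measure the spread between these libraries.

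Zeb2 (chr2:44983632-45117395 in GRCm38, minus strand) is the gene that the Cre recombines. In ECs its level was 106 and 106 CPM in the libraries labelled WT and 199 and 130 CPM in those labelled KO, from 1361 to 2856 counts. Both EC libraries labelled KO were thus above both labelled WT, opposite to the direction that the label implies, so that groups are named here by their labels alone. Counts were summed over the whole gene, so that loss of 1 exon is not separately visible in these values. The exon numbered 7 differs between the 7 coding transcripts that have one. It is a stretch of 109, 215 or 1970 bases and takes 1.94% to 49.0% of its transcript. Which of these stretches is floxed is not given in the sources used here. Whether libraries were exchanged was not tested. The estimated log2 fold change of KO over WT label was 0.62 ± 0.24 (SE) and did not pass the threshold of an adjusted p-value under 0.05 (edgeR quasi-likelihood test, Benjamini-Hochberg adjusted p = 0.303). KC markers lay beside it at 0.851% to 1.53% of their KC level in ECs labelled WT and 2.09% to 2.17% in those labelled KO; their part in the difference was not tested.

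Zeb2 was higher in HSCs and KCs than in ECs. HSC libraries labelled WT held 414 and 410 CPM, KC libraries 286 and 314 CPM, and HEP libraries 3.76 and 1.36 CPM. The HSC and KC libraries lay above both EC libraries, and the HEP libraries lay below every library of the other cell types. Among WT libraries Zeb2 was lower in ECs than in HSCs and KCs, with log2 fold changes of -2.24 ± 0.40 (SE) and -1.87 ± 0.40 (edgeR, adjusted p = 0.0123 and 0.0159), while HSCs and KCs were not told apart (0.37 ± 0.38, adjusted p = 0.546). The level in ECs was higher than in HEPs by 4.04 ± 0.45 (adjusted p = 5e-04). Without EC replicate 34 or 38 the difference of ECs from HSCs had adjusted p = 0.0609 and 0.0781. That of ECs from KCs had 0.0656 and 0.0827 without these, and 0.0506 without KC replicate 31. The HEP level amounted to 0.202% to 1.25% of that in WT KCs over all 4 HEP libraries, beside KC markers at 0.257% to 0.807%; what KC transcripts contribute to it was not tested.

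Zeb1 (chr18:5591860-5775467, plus strand), the paralogue of Zeb2, had the opposite distribution between ECs and HSCs. EC libraries labelled WT held 180 and 255 CPM, HSC libraries 40.9 and 32.1 CPM, KC libraries 5.23 and 8.35 CPM, and HEP libraries 6.12 and 3.48 CPM. No EC library overlapped with any library of another cell type, and KC and HEP libraries overlapped each other. Zeb1 was higher in ECs than in HSCs by 2.28 ± 0.35, than in KCs by 4.64 ± 0.39 and than in HEPs by 4.15 ± 0.39 on the log2 scale (edgeR, adjusted p = 0.00621, 5.7e-04 and 3.5e-04). The first of these calls was lost without HSC replicate 40 (adjusted p = 0.0639). KCs and HEPs were not told apart, and their order depends on the scale: the CPM mean was higher in KCs, the fitted log2 difference was -0.49 ± 0.35 (adjusted p = 0.304). TMM factors, which correct CPM for composition in the fits, were 0.497 to 0.588 in HEPs and 1.01 to 1.47 elsewhere, so that fitted folds against HEPs are smaller than ratios of CPM. Zeb1 in HSCs amounted to 14.8% to 18.9% of the WT EC level beside endothelial markers at 1.23% to 4.86%, and exceeded them in all 4 HSC libraries. In KCs it amounted to 2.41% to 6.36% beside markers at 2.37% to 5.15%; the part of endothelial transcripts there was not tested.

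**Figure D1:**
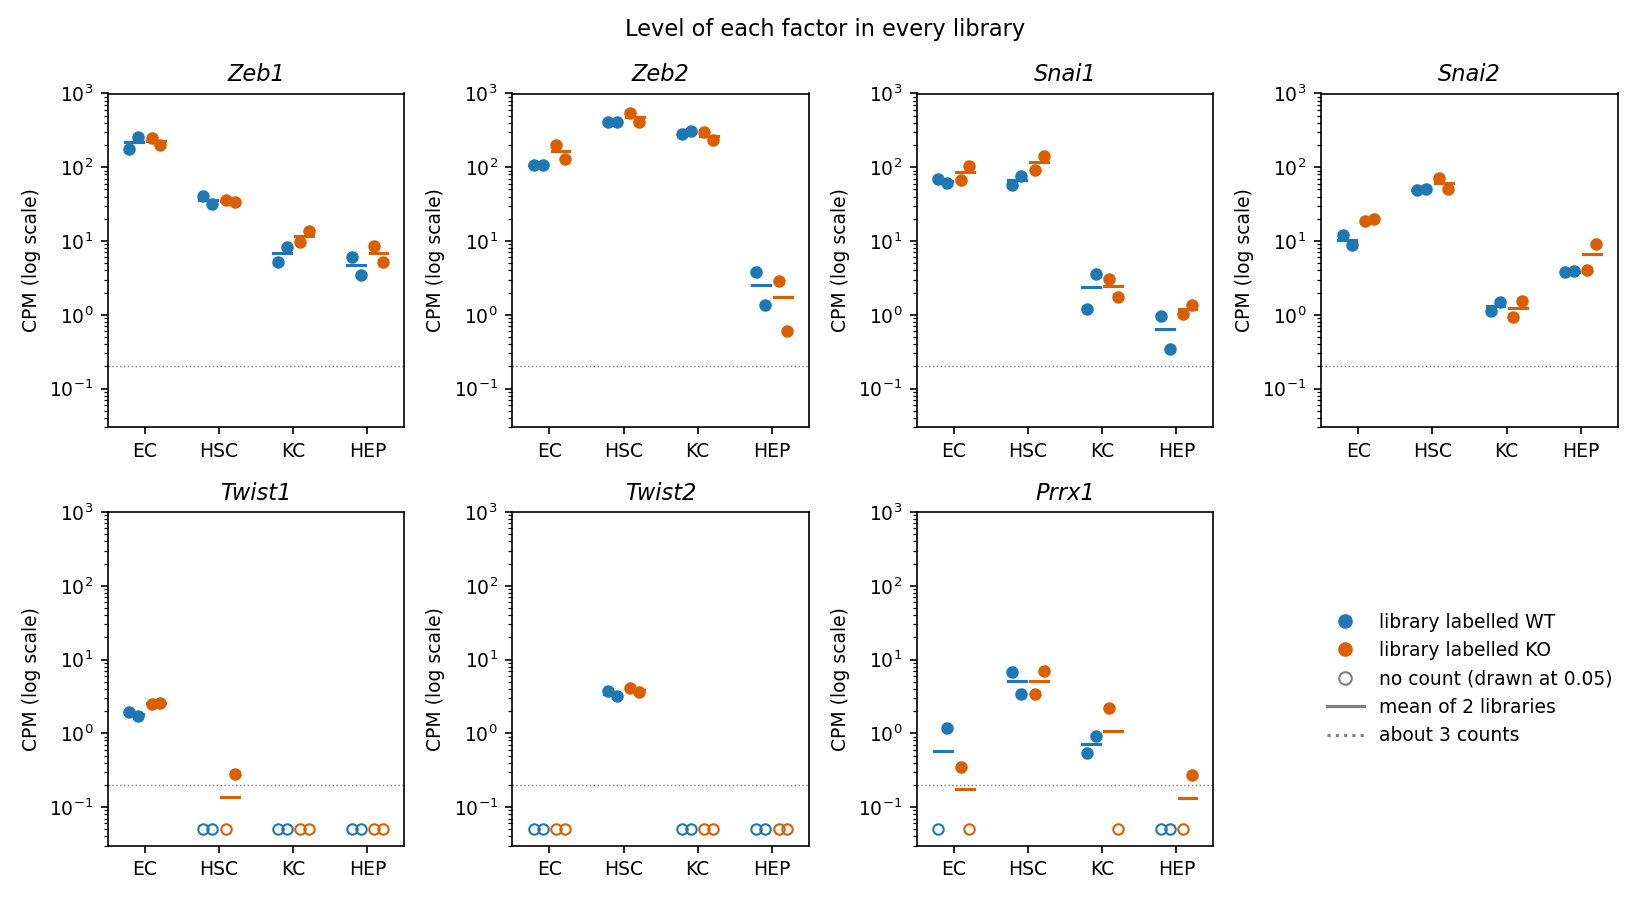
CPM of the 7 genes in the 16 libraries on a log axis, 1 panel per gene and 1 column per cell type, with blue points for the WT label, orange points for the KO label and a line at the mean of 2 libraries. Zeb2 is highest in HSCs and KCs, Zeb1 in ECs, and Snai1 in ECs and HSCs, and libraries without a count are open circles at the bottom of the axis.

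The balance of the 2 Zeb paralogues therefore differed between cell types. Per kilobase of exon, the ratio of Zeb2 to Zeb1 within a library was 0.305 and 0.214 in ECs labelled WT and 0.408 and 0.333 in those labelled KO. It was 5.21 and 6.59 in HSCs labelled WT, and 7.57 and 6.38 in those labelled KO. In KCs the ratio was 28.2 and 19.4 under the WT label and 15.9 and 8.75 under the KO label, and in HEPs, with 9 to 131 counts per gene, it was 0.0610 to 0.316. Zeb1 thus exceeded Zeb2 per length in all 4 EC libraries, and Zeb2 exceeded Zeb1 in all 8 HSC and KC libraries. These ratios use the union of all annotated exons (10266 bases for Zeb1 and 19942 for Zeb2). With the longest coding transcript instead, a choice made after the values had been seen, the WT mean moved from 0.260 to 0.321 in ECs, from 5.90 to 7.29 in HSCs and from 23.8 to 29.4 in KCs.

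Snai1 (chr2:167538195-167542814, plus strand), the Snail repressor, was shared by ECs and HSCs. EC libraries labelled WT held 68.5 and 61.2 CPM, HSC libraries 57.1 and 76.8 CPM, KC libraries 1.21 and 3.52 CPM, and HEP libraries 0.956 and 0.341 CPM. The EC values lay inside the HSC range, and every EC and HSC library was above every KC and HEP library. ECs and HSCs were not told apart (-0.32 ± 0.47 on the log2 scale, edgeR adjusted p = 0.715). Snai1 was higher in ECs than in KCs by 4.45 ± 0.55 and in HSCs than in KCs by 4.76 ± 0.56 (adjusted p = 0.0017 and 9.8e-04), and than in HEPs by 5.29 ± 0.60 and 5.61 ± 0.60 (5.2e-04 and 3.3e-04). KCs and HEPs differed by 0.85 ± 0.58 (adjusted p = 0.272), at 5 to 54 counts. Snai1 in KCs, at 1.86% to 5.43% of its EC level, stood beside endothelial markers at 2.37% to 5.15%; the part of endothelial transcripts was not tested.

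Of the members with a promoter in the RefSeq table (GRCm38.p6), which were Zeb2, Snai1, Twist1, Twist2 and Prrx1, Snai1 alone held CAGGTG on either strand in the 250 bases before its annotated start. Its promoter is shown because Snai1 is at once a repressor that reads this motif and a gene that carries it. The motif was present in 17.2% of the 32851 promoters of the table, and a match is a description, not a site or a cause. The sequence is that of the plus strand at chr2:167537945-167538194, with the motif, read here as CACCTG and starting 126 bases before the annotated start, in capitals.
Snai1: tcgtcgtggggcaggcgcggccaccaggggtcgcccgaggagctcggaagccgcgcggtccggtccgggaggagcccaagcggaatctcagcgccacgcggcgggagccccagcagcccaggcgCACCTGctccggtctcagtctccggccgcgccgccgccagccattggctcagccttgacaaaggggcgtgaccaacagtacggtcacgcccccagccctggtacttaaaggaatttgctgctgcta

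Snai2 (chr16:14705852-14709385, plus strand), which encodes Slug, was a gene of HSCs first. HSC libraries labelled WT held 49.5 and 50.4 CPM, EC libraries 11.9 and 8.78 CPM, HEP libraries 3.76 and 3.95 CPM, and KC libraries 1.14 and 1.5 CPM. These WT libraries of the 4 cell types did not overlap in CPM. Snai2 was lower in ECs than in HSCs (log2 fold change -2.54 ± 0.36, edgeR adjusted p = 0.00435), and higher in ECs than in KCs by 2.61 ± 0.38 (0.0031). HSCs exceeded KCs by 5.15 ± 0.42 and HEPs by 2.62 ± 0.37 (adjusted p = 2.4e-04 and 9.97e-04). ECs and HEPs were not told apart after normalization (0.08 ± 0.35, adjusted p = 0.871), and the sign of that estimate turned without EC replicate 34 (-0.18) or HEP replicate 29 (-0.02). KCs were lower than HEPs (-2.53 ± 0.39, adjusted p = 0.0015). Over all libraries Snai2 in HEPs was 7.53% to 18.4% of the WT HSC level beside HSC markers at 0.0872% to 0.228%, and in ECs 17.6% to 40.2% beside 0.429% to 1.66%, so that it exceeded the HSC markers in every library of both cell types. The per-kilobase ratio of Snai1 to Snai2 was 4.54 to 8.69 in ECs, 1.44 to 3.53 in HSCs and 1.32 to 4.19 in KCs, and it was 0.107 to 0.322 in HEPs, the only cell type in which Snai2 exceeded Snai1 in all 4 libraries.

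Twist1 and Twist2 were weak, and each was read almost wholly in 1 cell type. Twist1 (chr12:33957671-33959829, plus strand) had 28 and 22 counts in ECs labelled WT and 36 and 37 in those labelled KO, or 1.71 to 2.57 CPM. It had 4 counts in HSC replicate 20, labelled KO, and no count in the other 11 libraries. Twist2 (chr1:91801461-91848028, plus strand) had 58, 50, 60 and 53 counts in the 4 HSC libraries, or 3.20 to 4.15 CPM, and no count in any of the 12 EC, KC and HEP libraries. Against the floor of 3 counts per library, Twist1 was at least 7.88-fold higher in ECs than in HSCs, at least 7.12-fold higher than in KCs and at least 3.63-fold higher than in HEPs, all in WT libraries. Twist2 was at least 19.0-fold higher in HSCs than in ECs, at least 16.3-fold higher than in KCs and at least 8.31-fold higher than in HEPs.

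Among WT libraries each Twist gene was kept by the filter on low counts only through its own cell type, so that no other direction was possible. The 3 Twist2 contrasts passed the threshold (edgeR, adjusted p = 0.0487, 0.0315 and 0.0252), and so did Twist1 in ECs against HEPs (0.0474), whereas Twist1 in ECs against HSCs and KCs did not (0.0822 and 0.0640). Each of these 4 calls was lost whichever library of its pair was left out: adjusted p was 0.139 to 0.216 for Twist2 in ECs against HSCs, 0.0926 to 0.152 in HSCs against KCs, 0.0866 to 0.115 in HSCs against HEPs, and 0.159 to 0.190 for Twist1 in ECs against HEPs. With all 16 libraries in 1 fit, Twist1 in ECs passed against HSCs and KCs (adjusted p = 0.0243 and 0.010). A gene on the opposite strand, Gm29100, overlaps 1477 bases of Twist2 exons and had up to 53 counts in HSCs alone; the strand setting of the counting is not given in the sources used here, so that reads of the pair cannot be told apart.

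Prrx1 (chr1:163245119-163313710, minus strand) was at the edge of detection outside HSCs. HSC libraries held 6.79 and 3.45 CPM under the WT label and 3.46 and 6.92 CPM under the KO label, from 50 to 106 counts. EC libraries held 0 and 1.17 CPM under the WT label and 0.348 and 0 under the KO label, and KC libraries 0.537 and 0.913 against 2.18 and 0. Replicates within ECs and KCs thus ranged from no read to 33 counts, and 3 of the 4 HEP libraries had none. In WT libraries Prrx1 was at least 12.4-fold higher in HSCs than in HEPs (edgeR, adjusted p = 0.0302), a call lost without HSC replicate 32, HEP replicate 29 or HEP replicate 33 (0.0909 to 0.10). HSCs were not told apart from ECs or KCs (adjusted p = 0.218 and 0.255).

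Counted per contrast of WT libraries, 4 of the 7 genes differed between ECs and HSCs (Zeb1 higher, Zeb2, Snai2 and Twist2 lower in ECs), where 10.2% of all genes tested did, 4.88% higher and 5.33% lower. Between ECs and KCs 4 genes differed (17.3% of all genes, 9.23% higher and 8.05% lower), with Zeb1, Snai1 and Snai2 higher and Zeb2 lower in ECs. ECs had 4 genes above HEPs (Zeb1, Zeb2, Snai1 and Twist1) and none below, beside 43.6% of all genes called, 23.2% above and 20.4% below. HSCs had 4 genes above KCs (Zeb1, Snai1, Snai2 and Twist2; 21.2% of all genes called, 11.7% above and 9.47% below) and 6 above HEPs, that is, all but Twist1 (41.8%, 22.9% above and 18.9% below). KCs differed from HEPs in Zeb2, which was higher, and in Snai2, which was lower, beside 40.6% of all genes (20.5% higher and 20.1% lower). Among WT libraries Twist1 had counts in ECs alone and Twist2 in HSCs alone. Each was kept by the filter on low counts only through that cell type, which fixed the direction of its calls in advance. Prrx1 had no count in WT HEPs, so that against them it could only be higher. Leaving out 1 library leaves 1 in its group. Whichever library of the pair was left out, fewer genes were called in ECs against HSCs and in HSCs against KCs and HEPs. In ECs against KCs and HEPs the count fell for some libraries, and in KCs against HEPs it stayed.

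**Figure D2:**
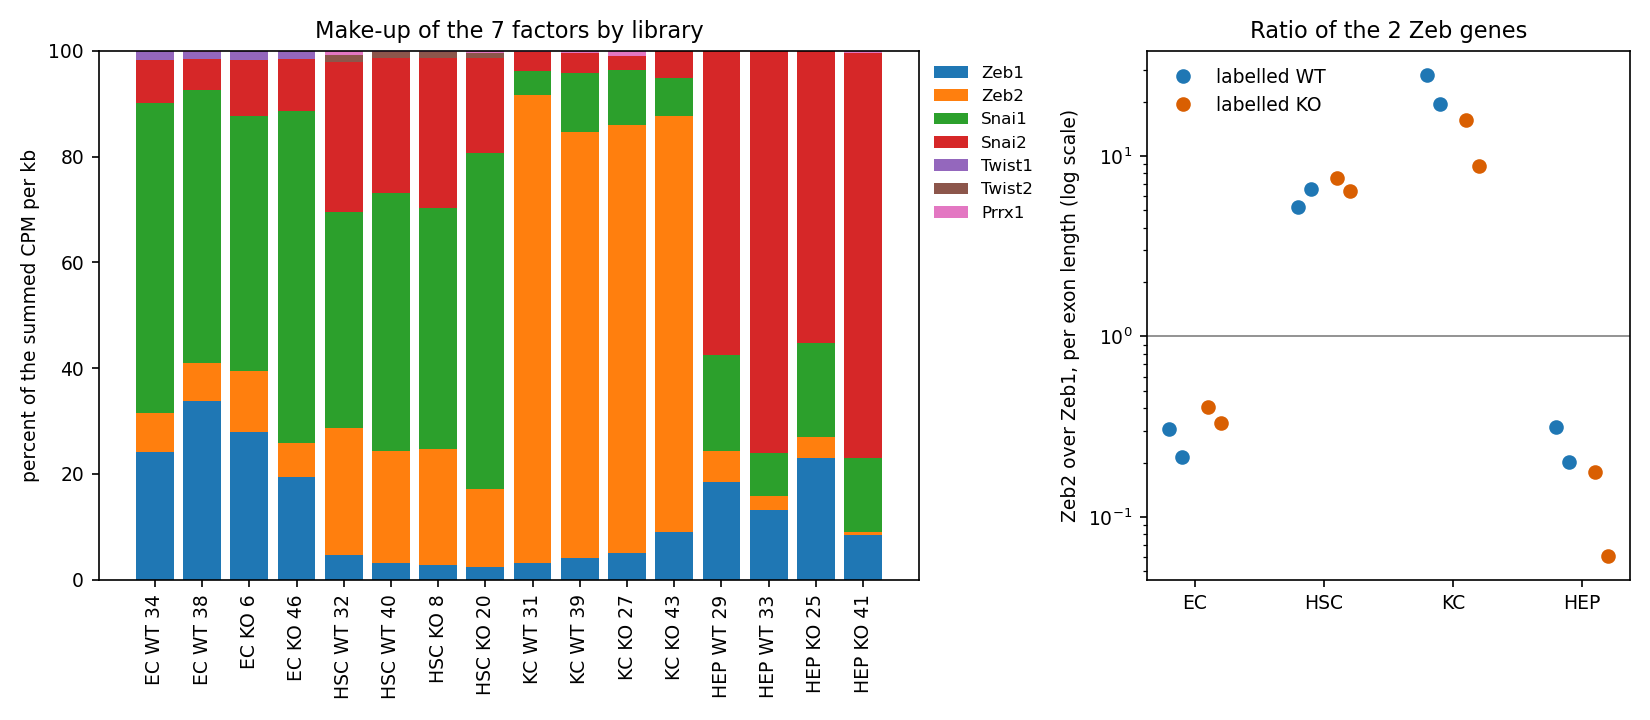
Left, share of each gene in the summed CPM per kilobase of exon of the 7 genes, 1 stacked bar per library, in percent, and right, ratio of Zeb2 to Zeb1 per exon length on a log axis, 1 point per library. Snai1 takes 48.2% to 62.7% in ECs and 40.8% to 63.4% in HSCs, Zeb2 78.6% to 88.5% in KCs and Snai2 55.2% to 76.6% in HEPs, and the ratio is under 1 in all EC and HEP libraries and above 1 in all HSC and KC libraries.

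Per kilobase of the union of all annotated exons, the picture of which factor was most abundant was another than per read. In ECs Snai1 made up 48.2% to 62.7% of the summed CPM per kilobase of the 7 genes, Zeb1 19.4% to 33.8% and Zeb2 6.46% to 11.4%. In HSCs Snai1 made up 40.8% to 63.4%, Snai2 18% to 28.4% and Zeb2 14.9% to 24.1%. KCs were dominated by Zeb2, with 78.6% to 88.5%. The union of exons is 19942 bases for Zeb2, whose longest coding transcript is 9124 bases. For Zeb1 these lengths are 10266 and 5801 bases. For Snai1 and Snai2 both lengths are the same (1621 and 2021 bases). Shares and ranks were not recomputed with the coding length. The order of Zeb2 against Snai1 and Snai2 in HSCs depends on this choice, and so does that of Zeb1 against Snai1 in some EC libraries. The sum itself was 72.2 and 73.4 CPM per kilobase in ECs labelled WT, 87.4 and 101 in ECs labelled KO, 86.2 and 97.3 in HSCs labelled WT, 124 and 139 in HSCs labelled KO, 15.0 to 19.6 in KCs and 2.57 to 5.92 in HEPs. HEPs thus had the lowest sum in every library, and KCs the next. Ranked by CPM per kilobase among genes with counts, Snai1 lay between the 92.6th and 95.7th percentile in ECs and between the 93.8th and 97.5th in HSCs, and Zeb2 between the 88.8th and 91.0th in HSCs.

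The label comparison within each cell type gave no call for any of the 7 genes. In ECs 0 of the 5 genes kept by the filter on low counts passed (2.08% of all genes did). It was 0 of 6 in HSCs, 0 of 5 in KCs and 0 of 4 in HEPs (0% of all genes in each). DESeq2 likewise called none of them in any cell type. At an unadjusted p under 0.05 edgeR listed 2 in ECs (Zeb2 and Snai2, where 15.0% of all genes were listed and 4.86% were higher under the KO label), 1 in HSCs (Snai1, 8.75% of genes and 1.75% higher), and none in KCs (5.09%) or HEPs (7.11%). For these groups of 2 libraries a permutation test cannot give a p-value under 0.333.

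The values behind these comparisons were as follows. In ECs Zeb1 was 180 and 255 CPM under the WT label and 251 and 201 CPM under the KO label, with means of 217 ± 53.1 and 226 ± 35.5 CPM (SD, n = 2 each). The ranges overlapped, and the log2 fold change was 0.06 ± 0.25 (SE; edgeR adjusted p = 0.949). Snai2 was 11.9 and 8.78 CPM under the WT label and 18.7 and 20.1 CPM under the KO label. Both KO libraries were higher, and the log2 fold change was 0.90 ± 0.34 (adjusted p = 0.296). Snai1 was 68.5 and 61.2 against 68.2 and 102.7 CPM. The ranges overlapped, and the estimate was 0.41 ± 0.28 (adjusted p = 0.571).

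Twist1 was 1.95 and 1.71 CPM in ECs under the WT label and 2.51 and 2.57 CPM under the KO label (log2 fold change 0.47 ± 0.74, edgeR adjusted p = 0.828). The 3 genes without overlap in ECs (Zeb2, Snai2 and Twist1) had both KO libraries above both WT libraries, as had 24.2% of all genes tested. Beside them, 1 of 8 portal fibroblast markers was called, and it was higher under the KO label. Of all 14631 genes tested 2.08% were called, 17 of them higher and 288 lower. The called marker was Cd34, which is also a marker of continuous endothelium. It had a mean of 66.3 CPM in ECs labelled WT and 212 CPM in those labelled KO, while the median log2 fold change of the list was -0.64. With 857 hepatocyte-enriched genes left out, neither Cd34 nor any other gene was called in ECs. HSC markers stood at 1.30% to 1.66% of their HSC level in ECs labelled WT and at 0.429% to 0.779% in those labelled KO, opposite to Snai2, and the part of these cells in the values was not tested.

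**Figure D3:**
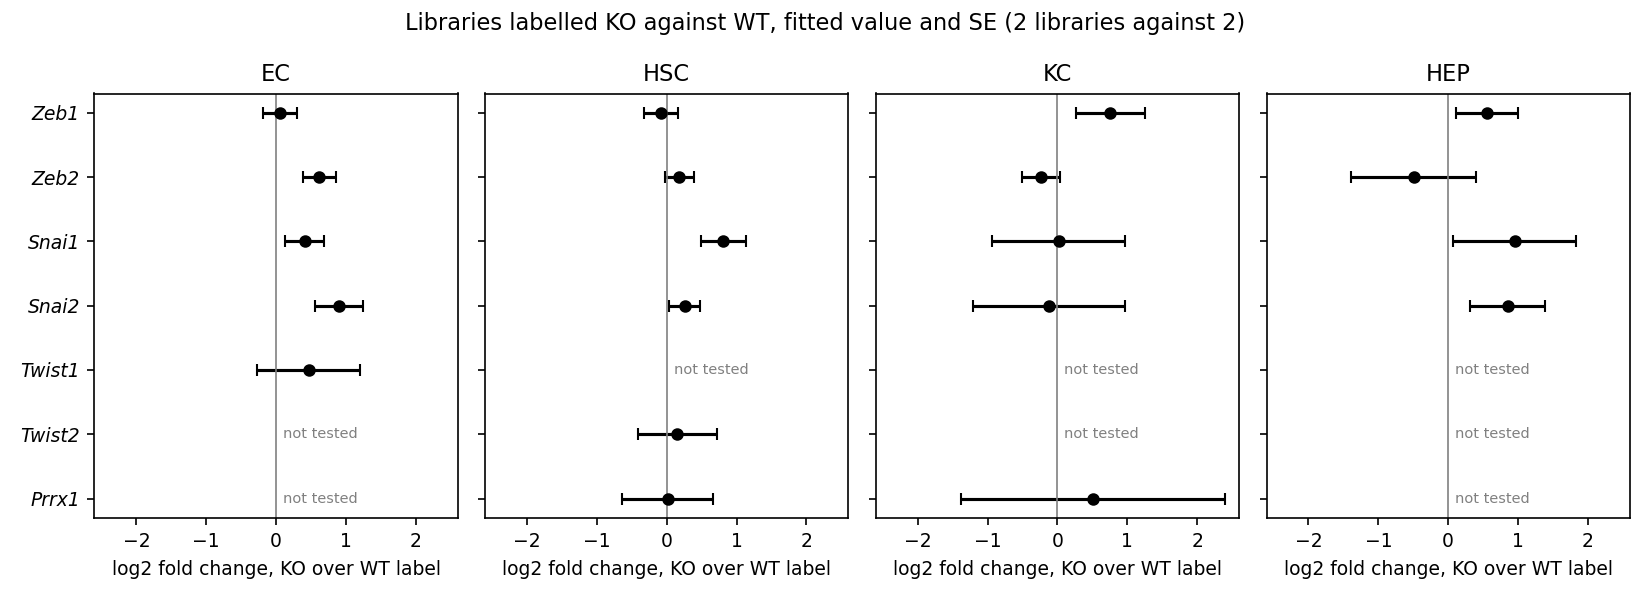
Log2 fold change of the KO over the WT label for each gene and cell type from edgeR, with bars of 1 SE (2 against 2 libraries). The largest estimates with small errors are those of Snai2 and Zeb2 in ECs (0.90 and 0.62) and Snai1 in HSCs (0.81), and none passed the adjusted threshold.

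In HSCs Snai1 was 57.1 and 76.8 CPM under the WT label and 91.6 and 143 CPM under the KO label. Both KO libraries lay above both WT libraries, as for 20.5% of all genes tested, and the log2 fold change was 0.81 ± 0.32 (edgeR adjusted p = 0.569). Beside it, 5 smooth muscle markers summed to 143 and 132 CPM under the WT label, with 1 of them at 0 in each library, and to 208 and 409.7 CPM under the KO label, with none at 0. None of the 5 was called (3 at an unadjusted p under 0.05), and their part in the Snai1 values was not tested. Snai2 was 49.5 and 50.4 against 71.2 and 50.7 CPM. It was separated by a margin set by KO replicate 20, and the estimate was 0.26 ± 0.22 (adjusted p = 0.835). Zeb2 was 414 and 410 against 538 and 413 CPM (0.18 ± 0.21, adjusted p = 0.875), and the ranges overlapped. Zeb1, Twist2 and Prrx1 had estimates of -0.09 ± 0.25, 0.15 ± 0.56 and 0.01 ± 0.65 (adjusted p = 0.957, 0.968 and 0.998).

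In KCs Zeb2 was 286 and 314 CPM under the WT label and 297 and 235 CPM under the KO label, with a log2 fold change of -0.23 ± 0.28 (edgeR adjusted p = 0.961). Zeb1 was 5.23 and 8.35 against 9.63 and 13.8 CPM. Both KO libraries were higher, as for 20.5% of genes, with 0.76 ± 0.50 (adjusted p = 0.933). Genes induced by tissue dissociation, such as Fos and Jun, summed to 27508 and 36543 CPM in KCs labelled WT and to 8234 and 14007 CPM in those labelled KO; whether they bear on these values was not tested. In HEPs Snai2 was 3.76 and 3.95 against 4.0 and 9.17 CPM, and Snai1 0.956 and 0.341 against 1.03 and 1.35 CPM. Both genes were separated without overlap, with the KO libraries higher as for 16.4% of genes, at log2 fold changes of 0.85 ± 0.53 and 0.95 ± 0.87 (adjusted p = 0.749 and 0.811). The remaining estimates in KCs and HEPs had standard errors from 0.44 to 1.89.

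The difference of the label effect between cell types was tested over all 16 libraries. None of the 7 genes passed in any of the 6 pairs of cell types, where few of all genes did: 2.07% for ECs and KCs, 0.593% for HSCs and KCs, 0.0755% for HSCs and HEPs, 0.0697% for ECs and HEPs, 0.0349% for ECs and HSCs, and 0.0116% for KCs and HEPs. The label effect on Zeb2 was greater in ECs than in HSCs by 0.45 ± 0.68, than in KCs by 0.83 ± 0.68 and than in HEPs by 1.07 ± 0.72 on the log2 scale (edgeR, adjusted p = 1.0, 0.649 and 0.795).

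**Figure D4:**
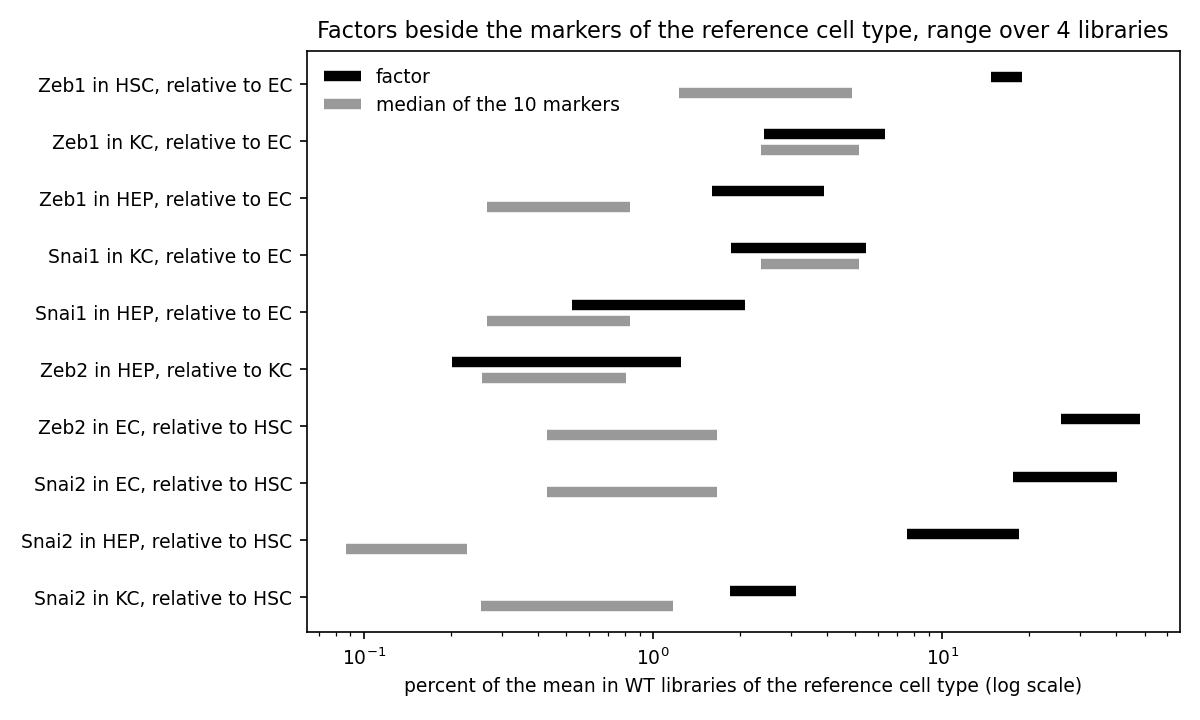
Range over the 4 libraries of a cell type of a gene (black bars) and of the median of 10 markers (grey bars), each as a percent of its WT mean in the reference cell type, on a log axis. The bars of Zeb1 and Snai1 in KCs overlap those of the EC markers, and those of Zeb2 and Snai2 in ECs, Snai2 in HEPs and KCs and Zeb1 in HSCs and HEPs lie wholly to the right of the markers.

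Relatives and partners of the 7 genes followed from lists chosen for their known function. Of 12 relatives in the Snail, Twist and Prrx families, such as Snai3, Scrt1, Hand1 and Prrx2, only Hand2, Tcf21 and Msc were expressed enough to be tested. All are bHLH factors of mesenchyme or muscle, and all were higher in HSCs than in ECs, KCs and HEPs. The filter on low counts keeps a gene that is high in 1 cell type alone. In the fits within a cell type it kept 3 relatives in HSCs, 1 in ECs, 1 in KCs and 0 in HEPs. The shared direction is therefore largely set by the filter, and Hand2 is also among the HSC markers used above. Of all genes, 5.33% were higher in HSCs than in ECs, 11.7% than in KCs and 22.9% than in HEPs. In HSCs labelled WT, Tcf21 reached 265 CPM, Msc 41.6 CPM and Hand2 10.7 CPM, against 1.57, 0.765 and 0.178 CPM in ECs.

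The bHLH list held the E proteins with which Twist dimerizes (Tcf3, Tcf4 and Tcf12) and the Id proteins that capture E proteins. Tcf4 was most abundant in ECs, with a mean of 451 CPM in WT libraries, against 213 in HSCs, 96.8 in KCs and 7.42 in HEPs. Id4 was higher in ECs, at 34.2 CPM, than in HSCs (1.09 CPM), KCs (0.298 CPM) and HEPs (0.102 CPM, under the floor), and Id2 was lower in ECs and in HSCs than in KCs (log2 fold changes of -2.65 and -2.85). Between ECs and HSCs 2 of the 7 genes were higher in ECs (Tcf3 and Id4) and 1 lower (Id3). Of all genes 4.88% were higher and 5.33% lower there, and the list median was 1.22 beside 0.00 over all genes. Between ECs and HEPs 5 were higher and 1 lower (23.2% and 20.4% of all genes).

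Zeb and Snail proteins repress through CtBP, histone deacetylases, the NuRD and Polycomb complexes and LSD1 (Kdm1a). Of 20 such corepressor and chromatin genes, 9 were higher in ECs than in HEPs (as were 23.2% of all genes), among them Ctbp2 at 31.2 against 0.170 CPM, the latter under the floor. The list median there was 1.27 beside 0.29 over all genes. HSCs had 8 above HEPs and 1, Kat2b, below, and KCs had 6 above, where 22.9% and 20.5% of all genes were above. Among non-parenchymal cells few differed: Rbbp7 was lower in ECs than in HSCs (log2 fold change -1.51), Hdac1 was higher in ECs than in KCs by 1.25, and Ajuba, an adaptor of Snail, was higher in HSCs than in KCs by 4.23. The 6 Smad genes encode partners of the Zeb proteins in TGF-β and BMP signalling. Of these, 5 were higher in ECs and in HSCs than in HEPs and 4 in KCs. The shares of all genes were 23.2% in ECs, 22.9% in HSCs and 20.5% in KCs. Among genes for the turnover of Snail and Zeb proteins, 10 of 11 could be tested, and Lats2, a kinase that stabilizes Snail, was higher in HSCs and in ECs than in HEPs by 3.45 and 2.95. Ctdsp1, a phosphatase that stabilizes Snail, was lower than in HEPs in ECs (-1.73), HSCs (-1.49) and KCs (-1.94). None of the corepressor, Smad, bHLH and turnover genes was called between the labels in any cell type.

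**Figure D5:**
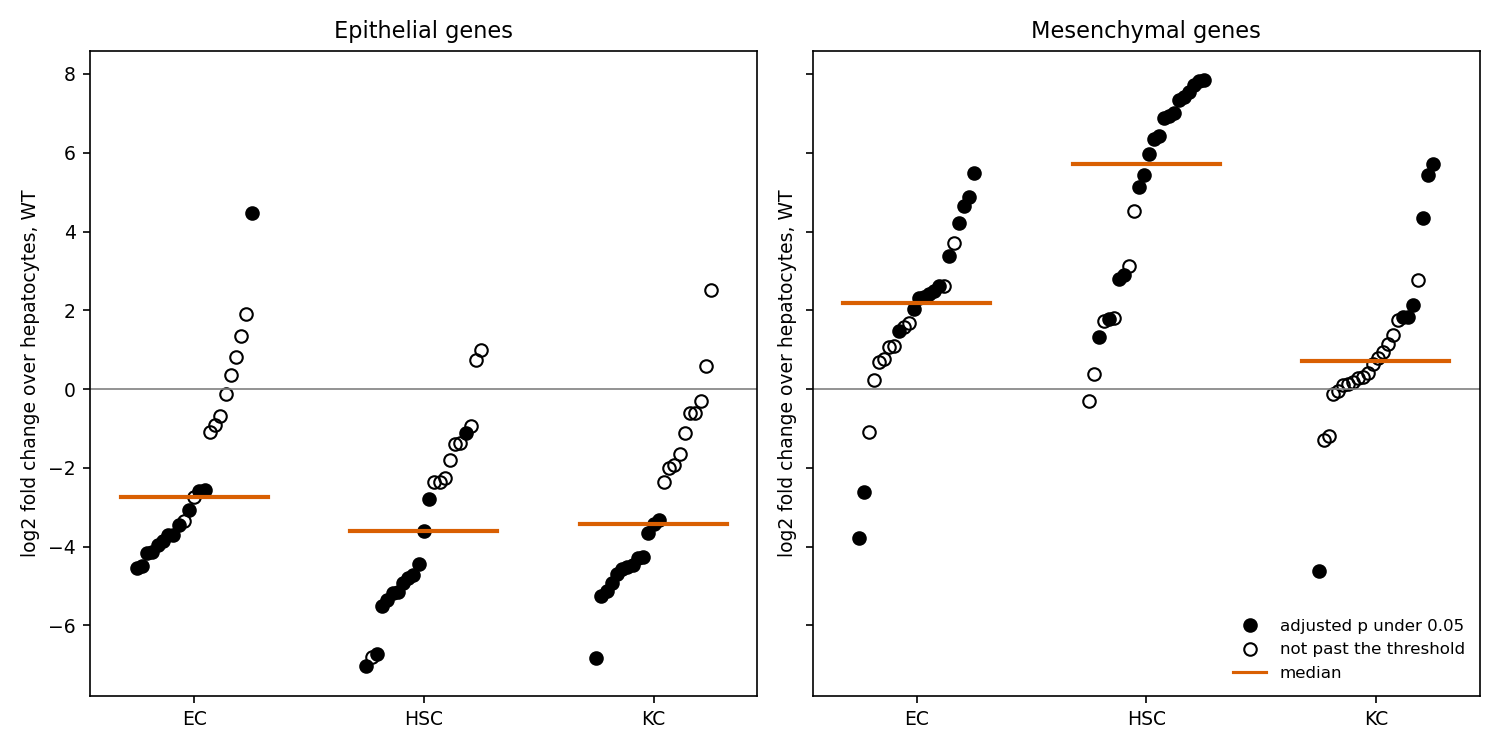
Log2 fold change against HEPs in WT libraries for epithelial and mesenchymal genes in ECs, HSCs and KCs, 1 point per gene, filled where edgeR called it, with the median as a line. Epithelial genes lie mostly below 0 (medians of -2.75, -3.61 and -3.42), and mesenchymal genes above 0, most of all in HSCs.

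Of 23 epithelial genes known to be repressed by these factors and tested, 12 were lower and 1 (Itgb4) higher in ECs than in HEPs, and 13 were lower in HSCs and 13 in KCs, with none higher in either. Of all genes, 20.4%, 18.9% and 20.1% were lower in these contrasts. The median log2 fold changes were -2.75, -3.61 and -3.42, beside 0.29, 0.42 and 0.10 over all genes tested. Cdh1 had log2 fold changes against HEPs of -2.57 in ECs, -3.61 in HSCs and -3.66 in KCs. Crb3, a polarity gene, was called lower in all 3, at 2.26 CPM in ECs, 0.736 in HSCs and 0.266 in KCs beside 16 in HEPs. The log2 fold changes of Krt8, a keratin of simple epithelia, were -3.71, -4.93 and -4.46, and those of its partner Krt18 were -3.44, -4.73 and -4.27. KCs had as many of these genes below HEPs as HSCs had, and whether this goes with the level of any factor was not tested. The comparison is with an epithelial cell, and hepatocyte transcripts in the ECs stood beside it at the levels given above.

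CAGGTG on either strand was present in the 250 bases before the start of 10 of the 14 epithelial genes with a promoter in the table (71.4%), of 6 of 10 genes for epithelial antagonists of these factors (60.0%), of 0 of 11 mesenchymal genes and of 19.4% of all 27025 genes with a promoter. Many genes of the epithelial list are textbook targets because of this motif, so that its share there is no independent evidence. Cldn1, Cldn3, Dsp and Marveld2 of that list lack the motif there, and whether the motif goes with the level was not tested. Krt8, Krt18, Crb3 and Tjp3 hold the motif and were lower in all 3 non-parenchymal cell types than in HEPs. Of these, the promoters of the keratin pair and of Crb3, which has the most motifs, are shown. Each runs over 250 bases, 5′ to 3′ on the strand of its gene, up to the base before the annotated start, with CAGGTG or its reverse complement CACCTG in capitals. Krt8 lies on the minus strand (chr15:102004343-102004592), and Krt18 (chr15:102027966-102028215) and Crb3 (chr17:57061951-57062200) lie on the plus strand. The motif begins 111 bases before the start in Krt8 and 214 bases before it in Krt18, and Crb3 has 3 of them, which begin 118, 63 and 7 bases before it.
Krt8: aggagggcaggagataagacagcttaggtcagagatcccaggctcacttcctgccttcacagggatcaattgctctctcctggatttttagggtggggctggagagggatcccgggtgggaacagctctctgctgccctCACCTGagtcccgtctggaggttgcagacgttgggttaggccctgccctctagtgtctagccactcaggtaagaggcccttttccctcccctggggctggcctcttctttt
Krt18: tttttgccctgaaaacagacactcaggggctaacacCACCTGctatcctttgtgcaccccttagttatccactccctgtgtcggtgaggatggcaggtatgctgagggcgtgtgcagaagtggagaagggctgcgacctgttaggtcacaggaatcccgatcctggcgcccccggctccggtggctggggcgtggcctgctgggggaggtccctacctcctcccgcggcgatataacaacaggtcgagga
Crb3: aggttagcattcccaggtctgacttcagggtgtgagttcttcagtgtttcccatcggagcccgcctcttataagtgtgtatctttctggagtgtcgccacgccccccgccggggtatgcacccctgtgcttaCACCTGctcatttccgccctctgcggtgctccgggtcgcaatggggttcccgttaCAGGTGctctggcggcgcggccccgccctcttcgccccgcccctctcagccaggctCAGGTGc

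Between the labels, 4 of 21 epithelial genes tested were lower in ECs labelled KO than in those labelled WT (log2 fold changes of -2.86 for Cldn1, -2.72 for Cldn3, -2.19 for Krt18 and -1.80 for Krt8), with a list median of -1.80 beside -0.01 over all genes, of which 1.97% were called lower. Hepatocytes express these 4 genes, and in the same libraries hepatocyte markers summed to 11874 and 24725 CPM under the WT label and to 1970 and 2873 CPM under the KO label, with none of the 10 at 0; their part in the calls was not tested. With 857 hepatocyte-enriched genes left out, edgeR called no gene in ECs. In HSCs, KCs and HEPs none of the epithelial genes was called (of 17, 22 and 20 tested).

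Among epithelial antagonists of these factors, the hepatocyte factors Hnf4a, Foxa2 and Foxa3 were lower in all 3 non-parenchymal cell types than in HEPs, Hnf4a with log2 fold changes of -3.95 in ECs, -5.25 in HSCs and -4.60 in KCs. Klf4 was higher than in HEPs in all 3, by 5.83 in ECs, 4.41 in HSCs and 5.37 in KCs. Grhl3, which belongs to a family that counteracts Zeb factors, was present in HSCs labelled WT at a mean of 12.1 CPM and had no count in the WT libraries of the other cell types. Mesenchymal genes were a feature of HSCs: 18 of 24 were higher there than in HEPs and 14 higher than in KCs, with none lower (median 5.71 against HEPs, beside 0.42 over all genes, of which 22.9% and 11.7% were higher). In ECs 11 were lower than in HSCs, with none higher (5.33% of all genes were lower). ECs had 12 above and 2 below HEPs (23.2% and 20.4% of all genes). Between the labels 3 of 23 tested in ECs were lower under the KO label (-4.24 for Cdh2, -3.01 for Fn1 and -1.95 for Col3a1), with a list median of -0.93, beside 1.97% of all genes called lower, and of these Fn1 and Cdh2 are also hepatocyte genes. Of 6 genes reported as Zeb2 targets in other tissues, 5 were tested. Ednrb was lower in ECs than in HSCs (-2.61), and none was called between the labels.

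Over the 16 libraries, the genes whose log2 CPM was most like that of Zeb1 were Wwtr1, Fzd4 and Plcg1 (Pearson r = 0.984, 0.983 and 0.976). Those most like Zeb2 were Sema6d, Eif4g3 and Plekha2 (0.989, 0.989 and 0.988), those most like Snai1 were Col4a2, Cdc42ep3 and Slc9a3r2 (0.985, 0.985 and 0.984), and those most like Snai2 were B4gat1, Masp1 and Ginm1 (0.976, 0.965 and 0.963). For Prrx1 they were Ptges3l, Speg and Epha3 (0.927, 0.922 and 0.921). Twist1 and Twist2, at 0 in most libraries, were most like other genes with few reads, such as Insl3 for Twist1 (0.981) and Gm13749 for Twist2 (1.0). Among the 7 genes themselves the closest pairs were Zeb1 and Twist1 (0.883) and Zeb1 and Snai1 (0.862), while Zeb1 and Zeb2 reached 0.476 and Twist1 and Twist2 -0.236. These 16 points are 4 cell types of 4 libraries each and share their composition within a type, so that the values describe the order of cell types.

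Other genes overlap 2 further members. Zeb2os lies antisense to Zeb2 and shares 653 bases of exon with it. It had 0 to 68 counts, against up to 7779 for Zeb2, with WT means of 3.80 CPM in KCs, 0.992 in HSCs and 0.384 in ECs. Gm10125 overlaps 198 bases of Zeb1 and had 0 to 94 counts.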

How the data were processed

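RNA of sorted ECs, HSCs and KCs and of isolated HEPs was sequenced by the authors in 16 libraries. They deposited, per library, raw counts of reads on Ensembl genes, which the authors made per the submitters' processing notes with Trimmomatic 0.32, HISAT2 2.1.0 and HTSeq 0.9.1 on GRCm38. No normalization had been applied. The strand setting is not given in the sources used here, and the series and sample descriptions name different library preparations. The 5 summary lines of the counter, with 42.5% to 57.5% of all reads in a table, were left out of totals and tests. Of the identifiers 99.1% were in GENCODE M21, from which positions and exon lengths were taken.

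Groups followed the labels. Counts were tested with edgeR 4.0.16 in R 4.3.3 (filterByExpr, TMM, quasi-likelihood F test) with Benjamini-Hochberg adjustment over all genes tested and a threshold of 0.05: cell types over the 8 WT libraries, labels within a cell type, and the difference of label effects over 16 libraries. Standard errors were derived as the log2 fold change divided by the square root of F. The script was tested on simulated data. Levels are CPM over gene rows, and levels of different genes were compared per kilobase. Alternatives were DESeq2 1.42.0, RLE size factors, other filters on low counts (none, or a minimum of 10 counts throughout), a fit of all 16 libraries or of a pair alone, leaving out 857 hepatocyte-enriched genes (at least 10 CPM in WT HEPs and at least 8 times the WT KC level), and leaving out each replicate. The genes named were the 7 factors, 2 to 4 per list (the most abundant or those past the threshold), and the 3 with the highest correlation to each factor with at least 1 CPM, computed on log2 CPM with a prior count of 2. Members, lists and tests were chosen with earlier results of these data known. Plots used Python 3.11.15, pandas 2.3.3 and matplotlib 3.10.9. Experiments other than RNA sequencing were not analysed here.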

Additional observations from a re-analysis of the deposited data

How the results depend on the processing

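No paired analysis was possible because no replicate number occurs in more than 1 group. Groups of 2 libraries limit every test, levels under 3 counts cannot be told from 0, and gene counts do not separate exon 7 of Zeb2. Leaving out a library leaves 1 in its group, which is then assumed to vary like the others.

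Of 197 recomputed label effects on the 7 genes, 185 kept direction and call. With none of the 7 called in the main test, an unchanged call carries little information. Prrx1 in HSCs turned to -0.0255 without hepatocyte-enriched genes. Without a replicate, signs turned for Zeb1 in ECs (-0.14 to 0.30) and HSCs (-0.27 to 0.11), Prrx1 in HSCs (-0.66 to 0.60) and KCs (-6.45 to 1.49), Snai1 and Snai2 in KCs (-0.49 to 0.83 and -0.61 to 0.23) and Zeb2 in HEPs (-1.91 to 0.34). Zeb2 in ECs stayed between 0.36 and 0.86, with adjusted p between 0.223 and 0.832 over 10 alternatives. Between cell types, signs turned for Prrx1 in ECs against KCs (-6.38 to 0.13) and Snai2 in ECs against HEPs (-0.18 to 0.40). Prrx1 in KCs against HEPs passed with DESeq2 and without a filter (adjusted p = 0.0480 and 0.0202). Twist1 in ECs against HEPs was lost without a filter (0.0576). Of the 7 genes, 4 were called between ECs and HSCs, and fewer without any 1 replicate of the pair. The same held for HSCs against KCs and HEPs. The ratio of Zeb2 to Zeb1 in HSCs was 7.29 with coding transcripts.

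Counts of all genes called depended on the method, and the cause was not tested. With DESeq2, no filter and left-out replicates in turn, the label gave 996, 1259 and 3 to 688 in ECs (305 in the main test, 489 at a minimum of 10 counts, 0 without hepatocyte-enriched genes), 75, 159 and 0 to 12 in KCs (0), and 31, 227 and 0 to 55 in HEPs (0). HSCs (0) had 407 with DESeq2, 663 without a filter and 178 with 16 libraries. ECs against HSCs (1630) gave 2940, 3252, 4481 with 16 libraries and 785 to 846 without a replicate. With 16 libraries ECs against KCs gave 5513 (2762), HSCs against KCs 7389 (3391) and HSCs against HEPs 10052 (6683), and without a replicate 1503 to 2328, 1751 to 2885 and 4211 to 5034. For differences of label effects, DESeq2, no filter and left-out replicates gave 93, 305 and 0 to 11 for ECs and HSCs (6), 1075, 1302 and 1 to 569 for ECs and KCs (357), 599, 980 and 0 to 110 for ECs and HEPs (12), 770, 1123 and 8 to 356 for HSCs and KCs (102), 363, 751 and 0 to 106 for HSCs and HEPs (13), and 138, 374 and 0 to 77 for KCs and HEPs (2). Without hepatocyte-enriched genes there were 1 for ECs and HSCs, 7 for ECs and KCs and 0 for HSCs and KCs. RLE factors moved the median of all genes in KCs against HEPs from 0.10 to 0.25.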
